A study of Mus musculus with 10 samples.

Results

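The interleukin-6 family cytokines, their receptors and the STAT3 pathway were followed in obstructed mouse kidneys through 9 genes of the 13920 in the deposited gene table. The genes were taken by symbol: the ligand genes Clcf1 and Lif, the signalling receptor genes Il6st, Lifr and Osmr, the alpha receptor genes Il6ra and Il11ra1, the transcription factor gene Stat3 and the feedback inhibitor gene Socs3. They were chosen with their difference between the groups already known, so their values in sham and UUO kidneys are a description and carry no test. RNA came from whole left kidneys of C57BL/6 mice after unilateral ureteral obstruction (UUO), in which 1 ureter is tied off and urine backs up into the kidney, or after a sham operation. Each group had 5 libraries, and the treatment entry was "None" in both, so the surgery was the sole difference the labels give. Age, sex and the time from surgery to collection are not given in the labels. Nothing in them says that the libraries of a group came from separate animals, so any p-value measures the spread between these samples, which may be technical.

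Cytokines of this family share the signalling chain gp130, the product of Il6st. Interleukin-6 and interleukin-11 first bind an alpha receptor that gives a cell its specificity, whereas leukaemia inhibitory factor (LIF) and oncostatin M pair gp130 with the LIF receptor or the oncostatin M receptor, and cardiotrophin-like cytokine factor 1 (CLCF1) acts through the receptor of ciliary neurotrophic factor. Janus kinases bound to the receptor tails phosphorylate STAT3, which enters the nucleus and switches on genes of the acute-phase and wound response, among them Socs3, whose product blocks the receptor again.

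Values were taken as FPKM, in which fragment numbers are divided by the length of the transcript and by the size of the library, so that levels of different genes are compared per length. Gene values summed to 327994 to 343018 FPKM per sham library and to 282172 to 302519 FPKM per UUO library. The median gene stood 0.40 higher in UUO on the scale of log2(FPKM + 1), and 0.002 higher after median-of-ratios scaling, which sets the typical gene equal across libraries. Sham 4 and UUO 3 stood apart from the rest of their groups: summed collecting duct markers reached 537 FPKM in sham 4 against at most 226 in the other sham libraries, and summed neutrophil markers 369 FPKM in UUO 3 against at most 53.2 in the other UUO libraries. The neutrophil sum rested on 3 of the 6 listed markers, S100a8, S100a9 and Cxcr2, as Ly6g, Mpo and Elane were not analysed. Marker levels of several cell types differed between the groups. Summed markers of macrophages ran from 33.2 to 51.0 FPKM in sham and from 735 to 1367 in UUO, and those of fibroblasts and pericytes from 21.1 to 36.0 and from 353 to 563. Summed proximal tubule markers ran from 1661 to 2524 FPKM in sham and from 172 to 1169 in UUO, and no marker with values was at 0 in all libraries of a group. In a whole organ, fewer cells of a type and less RNA per cell cannot be told apart, and the part of these shifts in the values below was not tested.

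The described genes divided into those near absent in sham kidneys and those well expressed there. In 6 of the 9, Clcf1, Lif, Osmr, Il6ra, Stat3 and Socs3, every UUO library lay above every sham library, a pattern found in 47.5% of the 13202 genes tested, with the reverse in 12.2%. The groups overlapped in the other 3, Il6st, Lifr and Il11ra1. Because the genes were picked on this contrast, nothing is read from the count. After median-of-ratios scaling the first 6 kept UUO above sham, while Lifr and Il11ra1 came to lie below sham in every UUO library, patterns found in 26.9% of genes in either direction. Lif, Osmr and Il6ra were below 0.5 FPKM in every sham library and entered the fit over all genes through their UUO values alone.

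**Figure D1:**
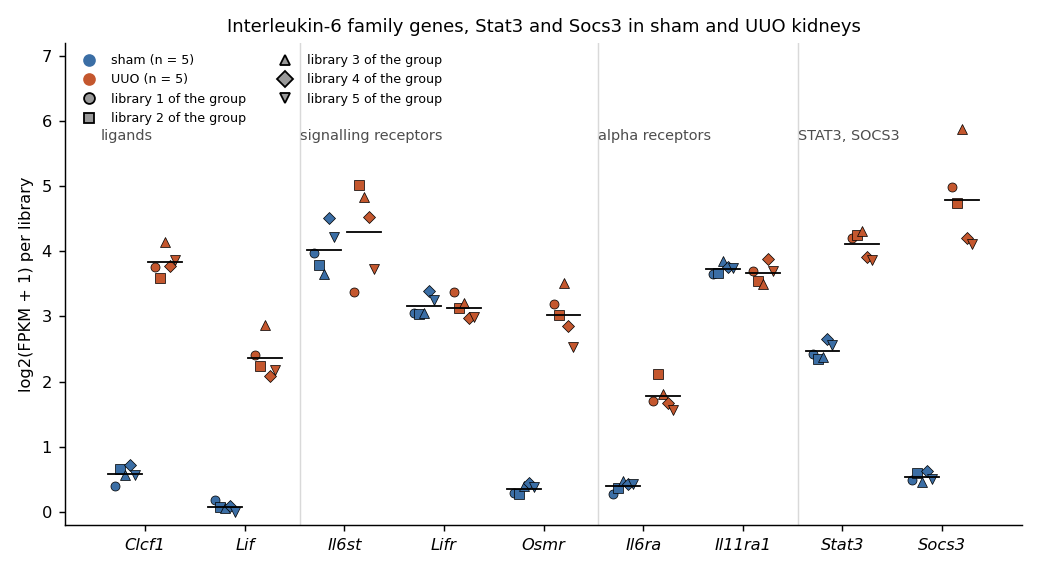
Level of each gene in each of the 10 libraries as log2(FPKM + 1), grouped by role, with sham in blue, UUO in orange, 1 symbol per library number and a bar at the group mean. Clcf1, Lif, Osmr, Il6ra, Stat3 and Socs3 show no overlap of the groups, and UUO 3 is the highest UUO library in 5 of the 9 genes. After median-of-ratios scaling, not drawn, the mean difference of Il6st turns from 0.27 to -0.21.

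Clcf1 encodes CLCF1, a ligand that acts by way of gp130. The gene lies on the plus strand at chr19:4214238-4223490 (GRCm38). It stood at 0.319, 0.570, 0.474, 0.647 and 0.479 FPKM in sham 1 to 5 and at 12.5, 11.02, 16.7, 12.7 and 13.6 FPKM in UUO 1 to 5. All sham libraries were below 1 FPKM and all UUO libraries near the level of Stat3, with UUO 3 the highest. The ratio of means was 26.7, from 0.498 ± 0.123 to 13.3 ± 2.10 FPKM (SD, n = 5 each), and the log2 difference 3.25, or 2.92 after median-of-ratios scaling. The transcript table lists 1 transcript of Clcf1. Its part of the gene value was estimated with the exon length in GENCODE M21, which holds another version of the gene than the deposited values. That part was 0% in sham 1, 2 and 5, 84.0% and 70.6% in sham 3 and 4, and between 2.82% and 27.5% in UUO libraries. By this estimate most of the gene's signal in UUO, and all of it in sham 1, 2 and 5, lay outside the listed transcript. That transcript, Clcf1-201, was at 0 in sham 1, 2 and 5, at 0.821 and 0.940 FPKM in sham 3 and 4, and at 0.729, 1.51, 9.13, 1.05 and 7.72 FPKM in UUO 1 to 5. Its groups overlapped, and UUO 3 and UUO 5 stood high. In the GENCODE M21 annotation Clcf1 shares exons with the protein-coding gene AC109138.7 on the same strand, so the fragments of these genes could not be told apart by strand.

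Lif encodes LIF, named for a leukaemia cell line and known for keeping mouse embryonic stem cells undifferentiated. It lies on the plus strand at chr11:4257557-4272514. Its sham values were 0.132, 0.0484, 0.0414, 0.0618 and 0 FPKM, which corresponds to between 0 and 7.90 fragments per library if the recurring lowest value of a library stands for 1 fragment. In UUO 1 to 5 it stood at 4.28, 3.71, 6.32, 3.25 and 3.53 FPKM. The groups did not overlap, sham 5 was listed at 0, and UUO 3 was again the highest. The ratio of the means, 4.22 ± 1.23 to 0.0567 ± 0.0479 FPKM, was 74.4, and without sham 1 it was 111, so its size depends on a handful of sham fragments.

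The 2 listed transcripts of Lif start at different places and begin their coding sequence differently, and the first bases of both are shown because Lif-201 was listed above 0 in UUO libraries alone. Capitals mark the start codon. The first lies at chr11:4266599 and opens a coding sequence of 609 bases that encodes the secretion signal; the second lies at chr11:4268300 and opens one of 474 bases. Sequences are those of GENCODE M21 on GRCm38, plus strand.
Lif-202: ATGaaggtcttggccgcagggattgtgccc
Lif-201: ATGaaccagatcaagaatcaactggcacag

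Lif-201 was at 0 in all 5 sham libraries and at 4.86, 4.18, 4.60, 3.59 and 3.32 FPKM in UUO 1 to 5. Lif-202, the longer form, made up all of the sham signal of a few fragments, up to 0.142 FPKM in sham 1. In UUO 1 to 5 it stood at 0.0440, 0.0274, 2.37, 0.103 and 0.592 FPKM. UUO 3 was thus the library with the most of the longer form, 34.0% of the gene's listed sum, and UUO 1, 2 and 4 held less than UUO 5 with 15.1%. Both forms share their last exons, and the split between them is StringTie's estimate.

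The other ligand genes were given from a list of 9, of which 6 had values and 4 passed the filter of 0.5 FPKM in at least 5 libraries. Of those 4 genes 2 were called higher and 0 lower by limma, a linear model fitted to every gene, at a Benjamini-Hochberg adjusted p below 0.05, where 58.5% of all tested genes were called higher and 16.1% lower, 74.7% in all. Ebi3, the shared chain of interleukin-27 and interleukin-35, rose from 0.291 ± 0.0714 to 3.45 ± 1.37 FPKM (limma adjusted p = 5.96e-06). Il11, the gene of interleukin-11, rose from 0.0626 ± 0.0553 to 1.74 ± 1.29 FPKM (limma adjusted p = 6.23e-04), with UUO 3 at 3.96 and the other UUO libraries between 0.664 and 1.59. Ebi3 and Il11 were below the filter in every sham library, which fixed their direction.

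The cytokine gene that names the family was at or below 0.944 FPKM in every UUO library except UUO 3. Il6 was listed at 0 in all 5 sham libraries and at 0.176, 0.944, 7.33, 0.152 and 0.492 FPKM in UUO 1 to 5. Osm, the gene of oncostatin M, was at 0 to 0.0336 FPKM in sham and at 0.485, 0.347, 4.01, 0.225 and 0.0919 FPKM in UUO. In both genes every UUO library lay above every sham library, and UUO 3 stood far above the rest. Neither gene reached 0.5 FPKM in 5 libraries, so neither was tested. UUO 3 was also the library with the highest neutrophil markers. Cntf and Ctf1, the genes of ciliary neurotrophic factor and cardiotrophin 1, had sham means of 1.44 ± 0.498 and 2.33 ± 0.412 FPKM and UUO means of 1.78 ± 0.774 and 2.61 ± 0.536 FPKM (limma adjusted p = 0.468 and 0.410).

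**Figure D2:**
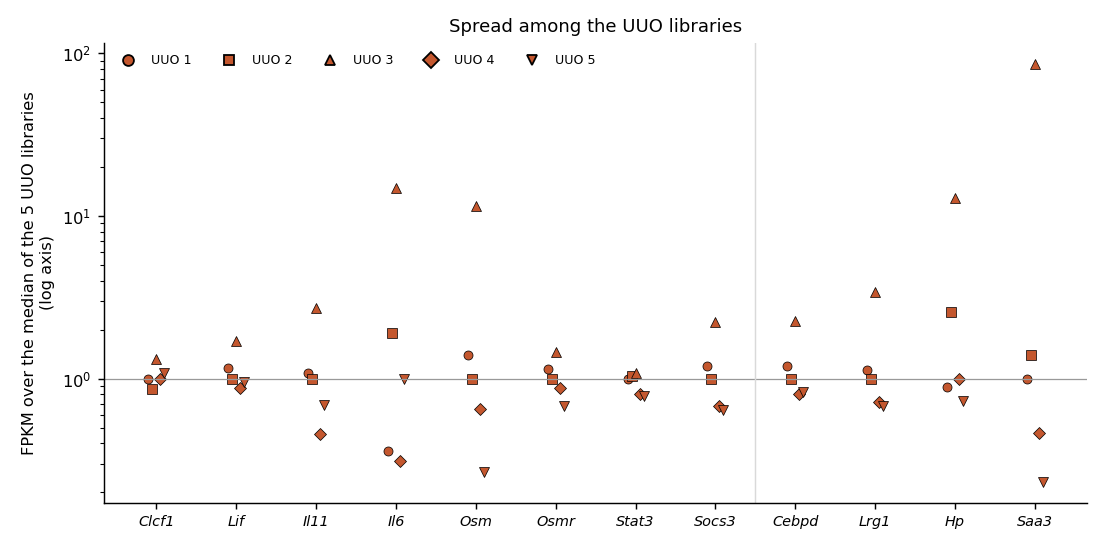
FPKM of each UUO library divided by the median of the 5 UUO libraries, on a log axis, for ligand genes, Osmr, Stat3 and Socs3 and, right of the line, for 4 STAT3 target genes that were chosen after their values were seen. Il6, Osm, Hp and Saa3 are far above the median in UUO 3, with Il6 at 7.33 and Saa3 at 65.6 FPKM, whereas the UUO values of Stat3 lie close together, between 13.5 and 18.9 FPKM.

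Il6st, the gene of gp130, was the most expressed of the 9 genes in sham kidneys per length. It lies on the plus strand at chr13:112464070-112510086. Sham 1 to 5 stood at 14.7, 12.8, 11.5, 21.7 and 17.6 FPKM and UUO 1 to 5 at 9.41, 31.2, 27.4, 22.0 and 12.3 FPKM. The groups overlapped throughout: UUO 1 was the lowest of all 10 libraries, UUO 2 the highest, and the UUO libraries differed by 3.31-fold among themselves. The means were 15.7 ± 4.06 and 20.5 ± 9.42 FPKM (SD, n = 5 each), a log2 difference of 0.27 that turned to -0.21 after median-of-ratios scaling. Both listed transcripts have the same coding length of 2751 bases, and Il6st-203 held between 80.7% and 99.9% of the listed sum in every library.

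Lifr encodes the LIF receptor chain and lies on the plus strand at chr15:7090614-7197489. It stood at 7.27, 7.22, 7.30, 9.51 and 8.51 FPKM in sham and at 9.39, 7.74, 8.19, 6.90 and 6.92 FPKM in UUO libraries. As deposited the groups overlapped with nearly equal means, 7.96 ± 1.02 and 7.83 ± 1.03 FPKM. The log2 difference was -0.02 and became -0.48 after median-of-ratios scaling, with every UUO library then below every sham library, and 0.15 after rescaling to equal sums. Lifr-203 made up most of the listed sum. The less abundant Lifr-201, which has the same coding length of 3276 bases and differs outside it, had means of 1.09 ± 0.151 FPKM in sham libraries and 0.573 ± 0.0551 FPKM in UUO libraries. Its level did not overlap between the groups, and its share went from between 10.1% and 13.2% to between 5.16% and 8.42%. A short form, Lifr-207, was listed above 0 in sham 2 alone, at 3.32 FPKM.

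Osmr encodes the oncostatin M receptor chain and lies near Lifr on the same chromosome, on the minus strand at chr15:6813577-6874969. Sham 1 to 5 stood at 0.220, 0.209, 0.315, 0.361 and 0.298 FPKM and UUO 1 to 5 at 8.14, 7.09, 10.35, 6.19 and 4.78 FPKM. Every UUO library was at least an order of magnitude above every sham library, with UUO 3 the highest and UUO 5 the lowest. The means were 0.281 ± 0.0646 and 7.31 ± 2.10 FPKM, and the log2 difference was 2.66, or 2.38 after median-of-ratios scaling. In sham kidneys the receptor genes of the pair were thus unequal. The ratio of Osmr to Lifr within a library, which no scaling of libraries can change, was 0.0303, 0.0289, 0.0432, 0.0379 and 0.0350 in sham 1 to 5 and 0.867, 0.915, 1.26, 0.897 and 0.691 in UUO 1 to 5. In UUO kidneys the levels of both genes were similar per length, and in UUO 3 Osmr was above Lifr.

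**Figure D3:**
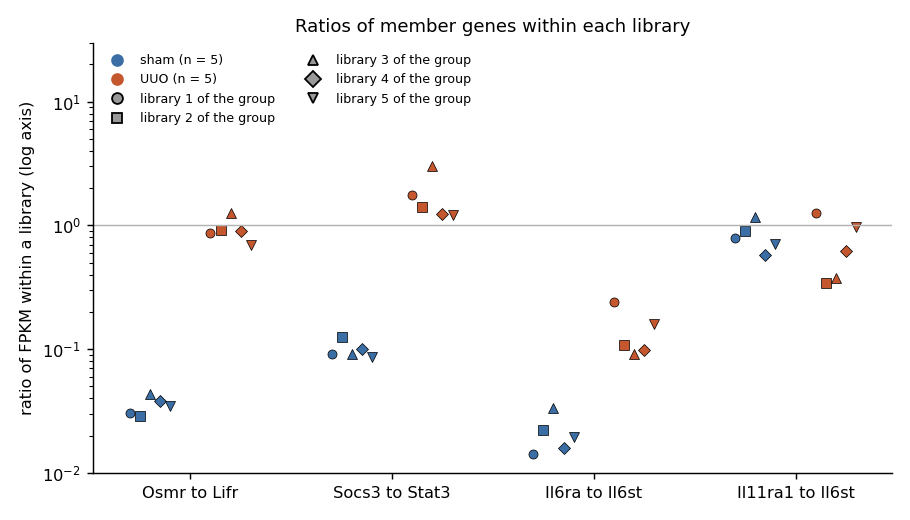
Ratio of the FPKM of a pair of genes within each library, on a log axis, with sham in blue, UUO in orange and the grey line at equal levels. The ratios of Osmr to Lifr, Socs3 to Stat3 and Il6ra to Il6st do not overlap between the groups, with means of 0.0351 and 0.927, 0.0993 and 1.73, and 0.0212 and 0.139 in sham and UUO, whereas that of Il11ra1 to Il6st overlaps.

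Il6ra encodes the alpha receptor that binds interleukin-6 before gp130 joins, and it is best known from hepatocytes and leukocytes. It lies on the minus strand at chr3:89864059-89913196 and overlaps the antisense gene Gm42809. It stood at 0.209, 0.284, 0.388, 0.347 and 0.345 FPKM in sham and at 2.24, 3.34, 2.50, 2.18 and 1.96 FPKM in UUO libraries. The groups did not overlap, UUO 2 was the highest, and the values of the other UUO libraries lay close together. The means were 0.315 ± 0.0696 and 2.45 ± 0.538 FPKM, a ratio of 7.77 and a log2 difference of 1.38, or 1.13 after median-of-ratios scaling. Its ratio to Il6st was 0.0212 ± 0.00769 in sham and 0.139 ± 0.0616 in UUO, so that the common chain was the more abundant in all 10 libraries. Of its transcripts Il6ra-202 held the larger share in 9 libraries. UUO 2 was the exception, with Il6ra-201 at 4.57 FPKM against at most 0.130 in every other library.

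Il11ra1 encodes the alpha receptor of interleukin-11 and lies on the plus strand at chr4:41699989-41769474. It stood at 11.6, 11.6, 13.5, 12.5 and 12.4 FPKM in sham and at 12.0, 10.7, 10.3, 13.7 and 11.9 FPKM in UUO libraries. As deposited these were the most even values among the 9 genes, and the groups overlapped. The means were 12.3 ± 0.761 and 11.7 ± 1.34 FPKM with a log2 difference of -0.07, which became -0.54 after median-of-ratios scaling with no overlap and 0.11 after rescaling to equal sums. As deposited, every UUO library lay above every sham library in its ligand gene Il11, whereas the groups overlapped in Il11ra1. Its transcripts Il11ra1-201 and Il11ra1-204 have the same coding length of 1296 bases and changed places between libraries: Il11ra1-201 held 87.6%, 99.9% and 100% of the listed sum in sham 5, UUO 1 and UUO 3 and between 12.5% and 21.9% in the other 7. These switches followed no group. The listed transcripts held an estimated 50.2% and 62.7% of the gene value in UUO 1 and UUO 3, and at least 73.5% in every other library. The shares of Il11ra1-201 in UUO 1 and UUO 3 thus leave out a large part of the gene value. The near-identical copy Il11ra2 was not analysed here, and how fragments shared with it were divided is not known.

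Of the other receptors of the family 4 genes were listed, 2 were tested and 1 was called higher. For this list and the next, the shares over all tested genes were 58.5% higher and 16.1% lower. Il27ra, the receptor chain of interleukin-27, rose from 0.0601 ± 0.0388 to 1.94 ± 0.536 FPKM (log2 difference 1.45, standard error 0.12, limma adjusted p = 1.32e-06), after entering the fit through its UUO values alone. Cntfr, the alpha receptor gene for CLCF1 and ciliary neurotrophic factor, averaged 1.12 ± 0.0634 FPKM in the sham and 1.65 ± 0.853 FPKM in the UUO libraries and was not called (log2 difference 0.27, standard error 0.17, limma adjusted p = 0.188). Receptors of other cytokines that also feed STAT3 made up a list of 7, of which 6 were tested, 5 were called higher and 1 lower. Il10ra and Il10rb, the chains of the interleukin-10 receptor, rose from 0.540 ± 0.139 to 7.36 ± 1.92 FPKM and from 9.14 ± 0.645 to 20.2 ± 3.23 FPKM (limma adjusted p = 6.41e-07 and 6.82e-06). Csf3r, the receptor gene of the neutrophil growth factor G-CSF, rose from 0.102 ± 0.0369 to 4.39 ± 2.42 FPKM (limma adjusted p = 7.67e-06), and Il21r, the interleukin-21 receptor gene, from 0.123 ± 0.0855 to 2.74 ± 0.813 FPKM (limma adjusted p = 1.10e-06). Csf3r and Il21r were below 0.5 FPKM in every sham library, and being tested through their UUO values fixed their direction. Macrophage and neutrophil markers were higher in the same libraries, and their part in these rises was not tested.

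Lepr, the leptin receptor gene, rose from 1.42 ± 1.69 to 4.43 ± 2.31 FPKM (limma adjusted p = 0.00803). Sham 4 at 4.41 FPKM overlapped the UUO libraries, and without it the sham mean was 0.673 FPKM. The call ended under quantile normalization (log2 difference 0.66, limma adjusted p = 0.103). Il22ra1, the epithelial receptor chain of interleukin-22, was the 1 gene of all pathway lists called lower as deposited. It went from 0.747 ± 0.150 to 0.385 ± 0.245 FPKM (log2 difference -0.35, standard error 0.12, limma adjusted p = 0.0223). Its groups overlapped, and the call ended without sham 5, UUO 1 or UUO 4 (limma adjusted p = 0.0562, 0.0577 and 0.0590).

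Stat3 encodes the transcription factor on which these receptors converge. It lies on the minus strand at chr11:100885098-100939540 and overlaps the span of Stat5a on the opposite strand by 72 bases, where exons of both genes overlap. It stood at 4.38, 4.09, 4.19, 5.32 and 4.89 FPKM in sham and at 17.4, 18.1, 18.9, 14.1 and 13.5 FPKM in UUO libraries. The groups did not overlap and the spread within each was narrow, with UUO 4 and UUO 5 somewhat below the other UUO libraries. The means were 4.57 ± 0.518 and 16.4 ± 2.43 FPKM, a ratio of 3.59, and the log2 difference was 1.64, or 1.18 after median-of-ratios scaling. Activity of STAT3 depends on phosphorylation, which RNA levels do not measure.

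The 3 listed transcripts of Stat3 differ at a pair of splice sites near the end of the coding sequence. The first is shown because it sets apart the full-length alpha form from the truncated beta form. The second is shown because it sets apart the listed alpha forms. At the first, capitals mark the 50 bases that Stat3-203 includes and Stat3-202 skips, at chr11:100889541-100889590 on the minus strand of GRCm38, GENCODE M21. Skipping them shifts the reading frame and shortens the coding sequence from 2310 to 2166 bases, which is the structure of STAT3 beta.
Stat3-203: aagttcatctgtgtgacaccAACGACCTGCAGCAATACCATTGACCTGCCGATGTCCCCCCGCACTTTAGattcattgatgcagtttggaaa
Stat3-202: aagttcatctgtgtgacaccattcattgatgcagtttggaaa

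At the second site, capitals mark the 3 bases at chr11:100893074-100893076 on the same strand that Stat3-203 includes and Stat3-201 lacks, a difference of 1 codon between coding sequences of 2310 and 2307 bases. The tac codon in the last letters of both sequences is that of the tyrosine that Janus kinases phosphorylate.
Stat3-203: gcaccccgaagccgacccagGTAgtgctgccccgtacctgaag
Stat3-201: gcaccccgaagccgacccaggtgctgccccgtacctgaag

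Stat3-203, an alpha form, stood at 3.19, 3.43, 4.85, 5.38 and 3.40 FPKM in sham and at 26.6, 19.1, 16.8, 13.3 and 11.5 FPKM in UUO libraries. Stat3-202, the beta form, stood at 1.64, 2.08, 1.35, 1.43 and 2.20 FPKM in sham and at 4.92, 7.34, 11.7, 9.81 and 6.60 FPKM in UUO libraries. Both were above sham in every UUO library, with the alpha form highest in UUO 1 and the beta form in UUO 3. Stat3-201, the alpha form without the codon, overlapped between the groups at 4.65 ± 1.37 and 8.31 ± 4.08 FPKM. As shares of the listed sum, Stat3-201 averaged 43.9% ± 8.88 in sham and 24.4% ± 11.5 in UUO, Stat3-202 16.9% ± 4.499 and 24.5% ± 9.22, and Stat3-203 39.1% ± 9.69 and 51.2% ± 13.6. The share of the beta form ran from 11.6% to 23.3% in sham and from 13.7% to 36.5% in UUO, so the groups overlapped, and alpha forms made up most of the sum in all 10 libraries.

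**Figure D4:**
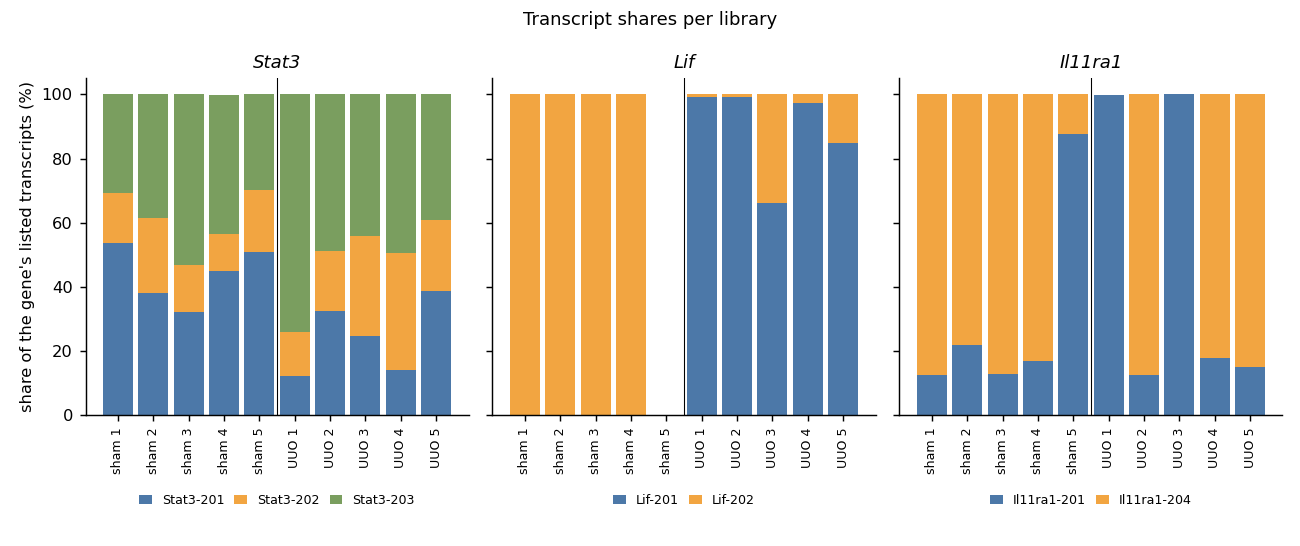
Share of each listed transcript in the sum of its gene's listed transcripts, in percent, for Stat3, Lif and Il11ra1 in each of the 10 libraries; the line parts sham from UUO. Stat3-202, the beta form, lies between 11.6% and 36.5%, and Il11ra1-201 dominates the listed sum in sham 5, UUO 1 and UUO 3. The listed transcripts of Il11ra1 held an estimated 50.2% and 62.7% of the gene value in UUO 1 and UUO 3. Lif is listed as Lif-202 alone in sham and as at least 66.0% Lif-201 in UUO, with no bar for sham 5 where the gene was at 0. The sham bars of Lif rest on at most 7.90 estimated fragments per library, too few to show that Lif-201 was absent.

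Of the 4 Janus kinase genes 4 were called higher as deposited, beside 58.5% of all tested genes. After median-of-ratios scaling 3 were called higher, where 34.1% of all tested genes were called higher and 34.3% lower. Jak3, the kinase of leukocyte cytokine receptors, rose from 1.47 ± 0.634 to 6.31 ± 1.10 FPKM (log2 difference 1.59, standard error 0.16, limma adjusted p = 8.21e-06) and Tyk2 from 2.55 ± 0.310 to 5.49 ± 0.642 FPKM (limma adjusted p = 9.31e-06). Jak2 rose from 8.44 ± 1.03 to 15.1 ± 2.96 FPKM (limma adjusted p = 2.91e-04). Jak1, the main kinase of gp130, was the most abundant at 18.4 ± 1.12 FPKM in the sham and 26.4 ± 4.69 FPKM in the UUO libraries (limma adjusted p = 0.00227), a log2 difference of 0.49 that was -0.0039 after median-of-ratios scaling. Of 5 other STAT genes 4 were tested and 3 were called higher, 2 after that scaling with 1 then lower. Stat2, a factor of the interferon response, rose from 1.45 ± 0.552 to 4.69 ± 1.15 FPKM (limma adjusted p = 8.55e-05). Stat6 rose from 14.3 ± 0.817 to 23.8 ± 1.67 FPKM (limma adjusted p = 5.31e-06). Stat5a rose from 2.41 ± 0.323 to 3.44 ± 0.192 FPKM (limma adjusted p = 0.00120; log2 difference 0.38, and 0.0060 after median-of-ratios scaling with adjusted p = 0.941). Stat4, at 0.0267 ± 0.0224 FPKM in sham and 0.626 ± 0.178 FPKM in UUO libraries, did not reach the filter and was not tested. Stat5b, at 6.92 ± 1.05 and 7.97 ± 0.487 FPKM, was not called as deposited (limma adjusted p = 0.0998). It was called lower after that scaling (log2 difference -0.26, limma adjusted p = 0.017). Per length, Stat6 was above Stat3 in all libraries of both groups.

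Socs3 encodes the inhibitor that STAT3 induces and that binds gp130 and its Janus kinases. It lies on the minus strand at chr11:117966079-117970047. It stood at 0.402, 0.517, 0.381, 0.538 and 0.420 FPKM in sham and at 30.8, 25.6, 57.4, 17.4 and 16.3 FPKM in UUO libraries. All sham libraries were low, corresponding to between 13.9 and 18.9 fragments each if the recurring lowest value stands for 1 fragment, and UUO 3 was above all others. The means were 0.452 ± 0.0708 and 29.5 ± 16.7 FPKM, a ratio of 65.3, or 49.9 without UUO 3, and the log2 difference was 4.25, or 3.91 after median-of-ratios scaling. Socs3 thus went from the sixth place in the order of the 9 levels in sham to the first in UUO. The ratio of Socs3 to Stat3 within a library was 0.0919, 0.126, 0.0910, 0.101 and 0.0860 in sham 1 to 5 and 1.77, 1.41, 3.04, 1.23 and 1.21 in UUO 1 to 5. It was below 1 in every sham and above 1 in every UUO library.

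The promoter of Socs3 held the palindrome that STAT dimers bind, and is shown for that reason. It is the RefSeq window of 300 bases at chr11:117969317-117969616 on the minus strand of GRCm38.p6, from 250 bases before the RefSeq start of the gene to 50 after it, with the match in capitals.
Socs3: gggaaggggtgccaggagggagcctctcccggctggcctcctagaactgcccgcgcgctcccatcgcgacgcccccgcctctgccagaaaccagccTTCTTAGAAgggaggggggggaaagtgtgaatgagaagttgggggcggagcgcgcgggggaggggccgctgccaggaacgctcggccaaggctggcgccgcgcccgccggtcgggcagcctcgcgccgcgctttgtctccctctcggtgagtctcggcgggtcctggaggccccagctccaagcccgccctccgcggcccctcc

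The motif searched was TTCNNNGAA on both strands. It was found in 1 of the 10 windows of 8 of the genes (Clcf1 was not in the RefSeq table), 154 bases before the Socs3 start, and in 8.30% of all 32851 windows. The AP-1 motif TGANTCA, also searched on both strands, was found in 2 of the 10 windows, as TGACTCA in that of Lif, 228 bases before the start, and as TGATTCA in that of Osmr, 3 bases after the start, against 7.81% of all windows. The Lif window is that of Lif-202, the less used start in UUO. These matches describe letters and are not evidence of binding.

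Of the 7 other SOCS genes 7 were tested and 4 were called higher, 3 after median-of-ratios scaling with 1 then lower. The 4 called higher were 57.1% of the list, near the 58.5% of all tested genes. After that scaling 34.1% of all tested genes were called higher and 34.3% lower. Socs1, the inhibitor induced by interferons, rose from 0.299 ± 0.181 to 2.67 ± 0.909 FPKM (log2 difference 1.47, standard error 0.16, limma adjusted p = 1.17e-05) and Socs2, an inhibitor of growth hormone signalling, from 2.57 ± 0.666 to 8.65 ± 1.44 FPKM (limma adjusted p = 6.98e-06). Socs6 rose from 2.33 ± 0.338 to 4.83 ± 0.640 FPKM (limma adjusted p = 3.12e-05), though not under quantile normalization (adjusted p = 0.0619). Socs4 rose from 6.72 ± 0.582 to 8.89 ± 0.624 FPKM (limma adjusted p = 0.00127), a log2 difference of 0.36 that was -0.095 after median-of-ratios scaling. Socs5, Socs7 and Cish were not called (limma adjusted p = 0.0941, 0.0520 and 0.151), and Socs7 had a log2 difference of -0.24 as deposited and of -0.67 after that scaling (limma adjusted p = 3.23e-05). Per length Socs4, Socs7 and Socs5 led the family in sham kidneys and Socs3 in UUO kidneys.

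Among 9 genes of phosphatases that remove the STAT phosphate and of PIAS proteins that bind STATs, 8 were tested. As deposited 6 were called higher and 0 lower, and after median-of-ratios scaling 3 were called higher and 1 lower. The shares over all tested genes were 58.5% and 16.1% as deposited, and 34.1% and 34.3% after that scaling. Ptpn6, the leukocyte phosphatase SHP-1, rose from 7.92 ± 0.679 to 15.7 ± 3.70 FPKM (limma adjusted p = 1.56e-04), and Ptpn2 and Ptpn1 rose to 13.8 ± 2.02 and 13.2 ± 1.05 FPKM (limma adjusted p = 2.29e-05 and 2.52e-05). Those 3 were called under both scalings. The rises of Ptpn11, Pias1 and Pias4 were small, with log2 differences of 0.37, 0.40 and 0.33 (limma adjusted p = 0.00928, 3.17e-04 and 0.00184), which became -0.11, -0.038 and -0.12 after that scaling. Pias2 and Pias3 were not called as deposited (limma adjusted p = 0.905 and 0.397). Pias2 was called lower after median-of-ratios scaling (log2 difference -0.46, limma adjusted p = 1.43e-04). The 2 sheddases that cut the interleukin-6 receptor from cells were both called: Adam10 rose from 15.8 ± 5.63 to 39.3 ± 5.05 FPKM (limma adjusted p = 5.83e-04) and Adam17 from 4.19 ± 0.781 to 8.05 ± 2.51 FPKM (limma adjusted p = 0.00704), the latter not after median-of-ratios scaling (adjusted p = 0.146).

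Genes known as STAT3 targets had the largest median difference of the lists. Of 35 listed, 33 had values and 30 were tested, of which 25 were called higher and 0 lower, and 25 and 3 after median-of-ratios scaling. Over all tested genes the shares were 58.5% and 16.1% as deposited, and 34.1% and 34.3% after that scaling. Of the 25, 3 were below the filter in every sham library, which fixed their direction. Their median log2 difference was 2.34, or 1.93 after that scaling, where all genes tested had 0.40 and 0.002. The list was compiled with earlier results of these data known, many of its genes answer to other factors as well, and macrophage markers were higher in the same libraries. Lcn2, which encodes the siderophore-binding protein lipocalin 2, had the largest rise and was at 0.773, 0.636, 0.510, 2.99 and 0.905 FPKM in sham and at 241, 129, 424, 85.6 and 100.1 FPKM in UUO libraries. Sham 4 was the highest of its group, with a sham mean of 1.16 FPKM, or 0.706 without it, and UUO 3 was the highest UUO library (log2 difference 6.34, standard error 0.43, limma adjusted p = 4.70e-07). Klf6, a zinc finger factor induced by injury, rose from 8.28 ± 2.41 to 103 ± 21.5 FPKM (log2 difference 3.49, standard error 0.17, limma adjusted p = 7.05e-08). Mcl1, which keeps cells from apoptosis, rose from 35.2 ± 1.80 to 90.9 ± 7.28 FPKM (log2 difference 1.34, standard error 0.07, limma adjusted p = 9.94e-08). Called lower after median-of-ratios scaling alone, and named after their values were seen, were Pim3, a survival kinase gene, the cyclin gene Ccnd1 and the angiogenic factor gene Vegfa. Pim3 was at 50.3 ± 13.2 FPKM in sham and 33.1 ± 18.7 FPKM in UUO libraries, with overlapping groups (log2 difference -0.70, limma adjusted p = 0.0732, and -1.20 with adjusted p = 0.00964 after that scaling). Ccnd1 and Vegfa had log2 differences of -0.21 and 0.042 as deposited and of -0.71 and -0.45 after that scaling (limma adjusted p = 1.58e-04 and 0.0124).

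Over all 82 genes of these pathway lists 73 had values and 67 were tested, of which 52 were called higher and 1 lower, beside 58.5% and 16.1% of all genes tested. After median-of-ratios scaling the counts were 45 and 7, beside 34.1% and 34.3%. Their median log2 difference was 1.29, or 0.86 after that scaling. Of the 67, 8 were below the filter in every sham library and were tested through their UUO values, so the counts support no direction for them. UUO 3 was the highest UUO library in 34 of the 67, and 21 of these were among the 30 tested target genes. It was so in 22.8% of all tested genes and 28.3% of those called higher. UUO 3 held the highest neutrophil markers, at 369 FPKM, and the lowest proximal tubule markers, at 172 FPKM, and the part of these in its values was not tested. Without any 1 of the UUO libraries 44 or 45 pathway genes were called higher, since genes that reach 0.5 FPKM in UUO libraries alone then fail the filter, and 44 were so without UUO 3. Without sham 4, 55 were called higher.

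**Figure D5:**
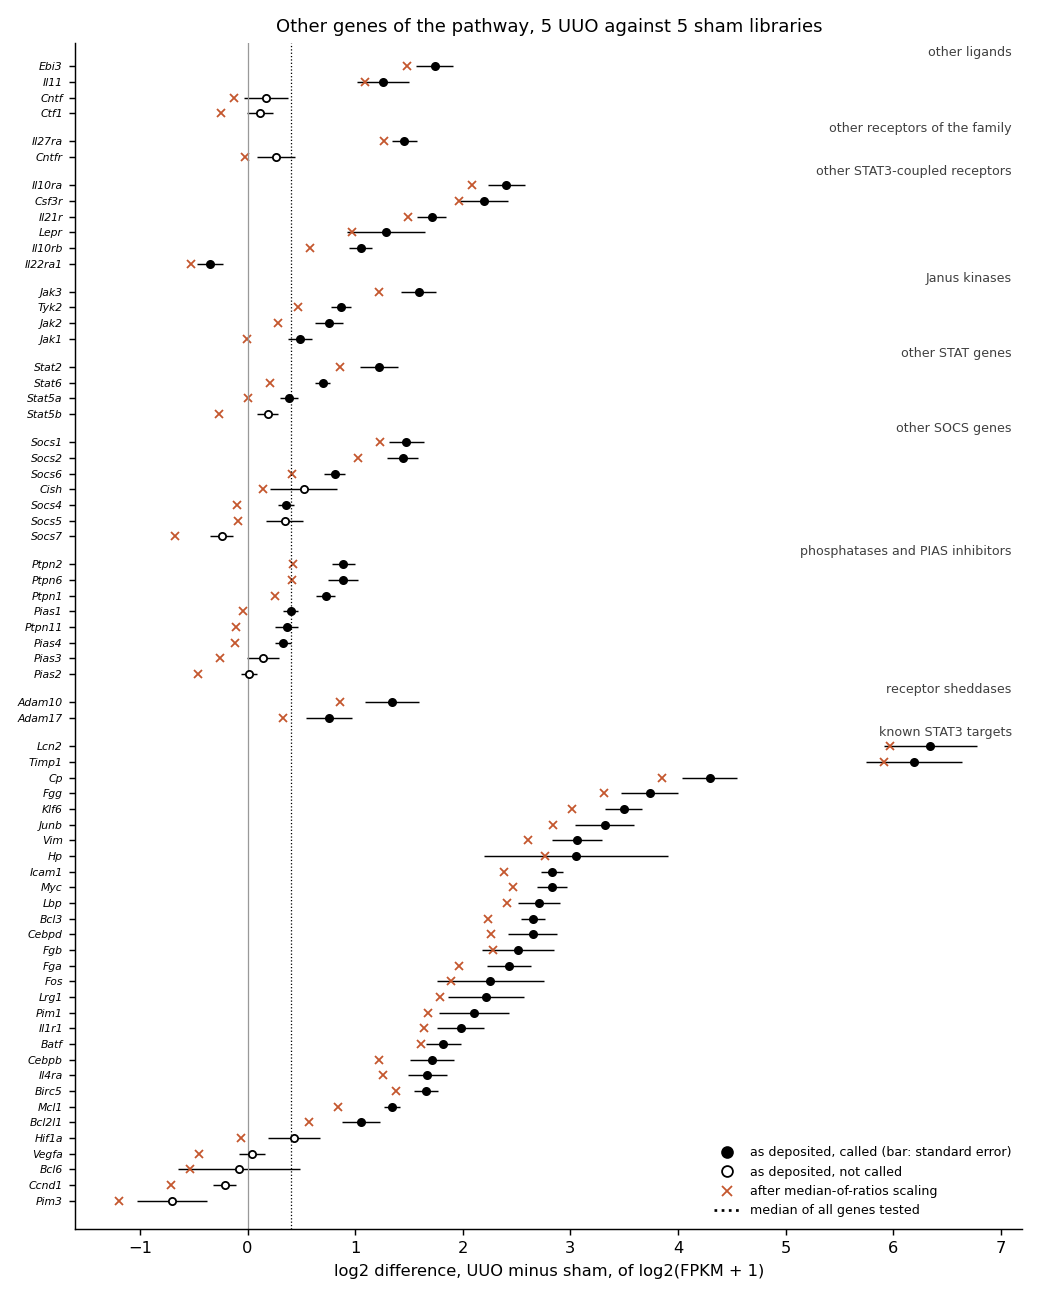
Difference between UUO and sham in log2(FPKM + 1) for the 67 tested pathway genes, grouped by role; filled points were called by limma, bars are standard errors, crosses give the difference after median-of-ratios scaling and the dotted line the median of all genes, 0.40. Lcn2 has the largest difference at 6.34, while Jak1, Pias1, Pias4, Ptpn11 and Socs4 are called as deposited and lie at or just below 0 after that scaling.

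Ordered by level per length, sham kidneys had Il6st at 15.7 and Il11ra1 at 12.3 FPKM, whose ranges overlapped, then Lifr at 7.96 and Stat3 at 4.57, each apart from its neighbours. Clcf1, Socs3, Il6ra and Osmr followed between 0.498 and 0.281 FPKM with neighbouring ranges that overlapped, and Lif was last at 0.0567. In UUO kidneys the order was Socs3, Il6st, Stat3, Clcf1, Il11ra1, Lifr, Osmr, Lif and Il6ra, from 29.5 to 2.45 FPKM. Neighbours overlapped there in every case except Il11ra1 and Lifr.

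Likeness to other genes was measured as the root mean square difference between profiles of log2(FPKM + 1), each relative to its sham mean, over the 10 libraries and among 8279 genes. On this scale a gene near 0 in sham can lie close to an abundant gene whose ratio of means is much smaller, as with Lif and Wfdc2 (50.1 and 258 FPKM in sham and UUO) or Il6ra and Gnai2 (35.3 and 96.1 FPKM). Stat3 lay nearest Tnfrsf1a, the tumour necrosis factor receptor gene, at 0.07, and Il11ra1 nearest Ppp1r16a, also at 0.07. Socs3 lay nearest Fcer1g, the common gamma chain of Fc receptors, at 0.21, Osmr nearest the B cell and macrophage gene Cd72 at 0.11, and Il6ra nearest the G protein gene Gnai2 at 0.10. Clcf1 lay nearest Ctxn1 at 0.22, Lif nearest Wfdc2 at 0.13, Lifr nearest the mitochondrial fission gene Fis1 at 0.09 and Il6st nearest the kinase gene Cdk19 at 0.22.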

How the data were processed

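Total RNA of the 10 kidney samples was isolated with Trizol, made into stranded libraries with a KAPA kit and sequenced on a NovaSeq instrument, per the labels' protocols. Reads were processed with cutadapt, HISAT2 and StringTie on GRCm38, per the submitters' processing notes, which give no versions. The authors deposited a gene table and a transcript table whose headers name no unit, and the values were taken as FPKM. Gene values were compared with the length-weighted sum of the listed transcripts over the gene's GENCODE M21 exon length. Of 116880 values, 42.7% were within 1% of what the listed transcripts give, 57.3% were above it and 0% below. Whether unlisted transcripts make up the excess was not tested, as their values were not given. No read counts were given, so depth is unknown except as estimated from recurring low values in sham, taken as the value of 1 fragment.

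The 13202 genes that reached 0.5 FPKM in 5 or more libraries were tested as log2(FPKM + 1) with limma 3.58.1 in R 4.3.3 (trended eBayes), p-values adjusted by the Benjamini-Hochberg method over all of them and a threshold of 0.05; the procedure was tested on simulated data. Tables were made in Python 3.11.15 with numpy 2.4.6 and pandas 2.3.3, figures with matplotlib 3.10.9. Adding 1 before the logarithm understates the change of low genes, and ratios are of mean FPKM. Transcript shares are of the sum of listed transcripts, 17 for the 9 genes. Groups followed the sample titles. Some genes of the pathway lists are not reported here and are not counted in them. The 9 genes, the pathway and marker lists and the rules were chosen with earlier results of these data known. Named were the 9 genes, every gene with values in lists of up to 10, of the longer list the strongest called rise and fall (none was called lower) and the 3 highest means, and the nearest gene in profile; Il6 and Osm belong to a short list, while Pim3, Ccnd1, Vegfa, Hp, Saa3, Cebpd and Lrg1 were chosen after their values were seen. Alternatives were other pseudocounts, filters and scalings, a replicate block and leaving out each library.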

Additional observations from a re-analysis of the deposited data

Results flagged for a closer look

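Among 169 groups of 5 libraries checked, from the 9 genes, their ratios and the other pathway genes, 27 held a highest or lowest library whose gap to its nearest neighbour was over 0.71 of the group's range, a gap that chance gives in about 1 in 20 groups. None of the 27 was among the 9 genes or their ratios.

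UUO 3 stood above the other UUO libraries in 11 genes and below them in Il10ra. Its FPKM was 7.33 in Il6 (others up to 0.944), 4.01 in Osm (up to 0.485), 3.96 in Il11 (up to 1.59) and 3.97 in Il10ra (others from 7.67). It was 65.6 in Saa3 (up to 1.06), 7.55 in Saa1 (up to 1.13), 98.4 in Hp (up to 19.6), 44.3 in Lrg1 (up to 14.6) and 278 in Timp1 (up to 80.6). It was 115 in Junb (up to 71.8), 78.6 in Cebpb (up to 46.4) and 25.2 in Cebpd (up to 13.3).

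Of all tested genes, 50.2% had sham 4 as the highest sham library. Sham 4 stood above the other sham libraries in 8 genes: at 4.41 FPKM in Lepr (others up to 0.928), 8.24 in Socs5 (up to 4.53), 8.51 in Pim1 (up to 2.86) and 31.6 in Hif1a (up to 14.8). It was at 10.8 FPKM in Hp (up to 0.266), 2.99 in Lcn2 (up to 0.905), 1.68 in Il1r1 (up to 0.820) and 12.5 in Klf6 (up to 7.498).

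UUO 1 stood above its group at 8.53 FPKM in Lepr, 3.54 in Ctf1, 7.68 in Pias1 and 9.24 in Pias4. UUO 2 did at 4.75 FPKM in Birc5. Sham 3 was below its group at 6.72 FPKM in Ptpn6, and sham 5 above it at 0.151 in Fgb. Markers of neutrophils were highest in UUO 3 and those of collecting duct, urothelium and adipocyte or adrenal tissue in sham 4, at 537, 38.8 and 37.1 FPKM, and their part in these values was not tested.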

How the results depend on the processing

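Under each scaling tried, 6 of the 9 genes had UUO above sham without overlap. That pattern was found in 47.5% of all tested genes as deposited and in 26.9% after median-of-ratios scaling. The count was also 6 with each pseudocount and left-out library, but these settings could not have lowered it. A pseudocount keeps the order of the values, and leaving out a library cannot bring about an overlap. The count of genes called higher and lower moved most with scaling: 4507 and 4522 after median-of-ratios scaling and 3908 and 4825 after quantile normalization, against 7727 and 2130. The 1 pathway gene called lower became 2 with a pseudocount of 0.01, 0 with a filter at 1 FPKM, 7 and 8 after median-of-ratios and quantile scaling, 0 after rescaling to equal sums and 0 to 2 on leaving out 1 library. Among the named genes called in either setting, log2 differences changed sign after median-of-ratios scaling in Jak1 (-0.0039), Pias1 (-0.038), Pias2 (-0.46), Pias4 (-0.12), Ptpn11 (-0.11), Socs4 (-0.095) and Stat5b (-0.26), and after quantile normalization in Cntf (-0.50), Ctf1 (-0.52), Pias1 (-0.053), Pias2 (-0.33), Pias3 (-0.42), Pias4 (-0.10), Socs4 (-0.053), Stat5a (-0.23) and Stat5b (-0.24). Of the 9 genes Il6st changed sign after median-of-ratios scaling (-0.21) and Lifr (0.15) and Il11ra1 (0.11) after rescaling to equal sums. Calls ended with no change of sign in Lepr, Socs6, Jak1 and Ptpn11 after quantile normalization (limma adjusted p = 0.103, 0.0619, 0.0551 and 0.589), in Adam17 after that and median-of-ratios scaling (0.245 and 0.146), in Stat5a after median-of-ratios scaling (0.941) and in Il22ra1 after rescaling to equal sums (0.0670). On leaving out 1 library Lifr ran from -0.083 to 0.037 and was above 0 without sham 4, sham 5, UUO 4 or UUO 5, and the difference in the Il6ra-201 share ran from -6.78 (without UUO 2) to 16.6 percentage points. The cause was not tested.

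Replicate numbers did not pair the libraries: same-numbered deviations correlated at 0.03, -0.16, -0.11, -0.26 and 0.15, and 1 of 5 numbers matched best with itself. With a replicate block 7319 genes were higher and 1953 lower, and 52 pathway genes higher and 2 lower. Depth limits Lif in sham most, at 0 to 7.90 fragments if the lowest step is 1 fragment.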
